A study of Mus musculus with 6 samples.

Results

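Cadherins and protocadherins are the cell adhesion proteins named here by the gene symbols Cdh followed by a number and Pcdh. They were read from arrays of cells sorted from the mouse colon. A gene was a member when a probe set carried its symbol alone, and where it had several such probe sets, the one with the highest average across the 6 libraries stood for it. This gave 56 members of 18193 genes tested. They were 5 classical type I cadherins, 11 type II cadherins, 5 atypical cadherins, 9 delta protocadherins, 3 other single protocadherins and 23 clustered protocadherins, of which 22 were Pcdhb genes and 1 was Pcdhgc4.

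Classical cadherins hold neighbouring cells together by calcium-dependent binding to like molecules on the other cell, and their cytoplasmic tails are tied to actin through catenins. Because each cell type displays its own set, cadherins are used as markers: Cdh1 (E-cadherin) for epithelium, Cdh5 (VE-cadherin) for endothelium, Cdh2 (N-cadherin) for neural and muscle tissue, and Cdh19 for neural-crest-derived glia. Clustered protocadherins are best known from neurons, where the set that a cell displays gives its surface an identity. In the gut, neurons and glia of the myenteric plexus lie between muscle layers and descend from the neural crest.

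Cells of 3 libraries labelled EGFP-positive (described as colonic neurons) were set against cells of 3 libraries labelled EGFP-negative (described as myenteric cells). All came from mice of the strain Mapttm1(EGFP)Klt/J, in which EGFP is produced from the Mapt locus, the tau gene, so that the sort rests on the activity of this locus. Before the sort, cholera toxin subunit B with a fluorescent dye had been injected into the celiac ganglion of all mice, which were killed 3 to 4 days later, and each library pooled 2, 4 or 6 mice, with no statement of which. The labels give no ages. Values are log2 expression values in the order of replicates 1, 2 and 3, and a difference is the EGFP-positive mean minus the EGFP-negative mean on this log2 scale. Control probe sets for TrpnX, a bacterial transcript, read 1.00 to 1.48 and mark the background.

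Mapt, the gene whose locus drives EGFP, read 1.43, 1.32 and 5.55 under the EGFP-positive label, against 1.44, 1.64 and 1.38 under the EGFP-negative label. It stood clearly above background in 1 library alone, EGFP-positive replicate 3. In EGFP-positive replicates 1 and 2 it read near the level of the EGFP-negative libraries. Whether this transcript follows EGFP in these mice was not tested, so the match of these libraries to their label cannot be told from Mapt alone. The mean of 14 pan-neuronal genes, Mapt among them, was 3.24 and 3.16 in EGFP-positive replicates 1 and 2. This was below every EGFP-negative library (3.34, 3.53 and 3.76), and only EGFP-positive replicate 3 stood above them, at 6.55. Of the 14 genes, 2 were higher in all 3 same-numbered pairs. Directions are given by label, and the differences of the members described at length also without EGFP-positive replicate 3. EGFP-negative replicate 1 had the fewest probe sets above 6, at 6182, where the highest library had 7621. Libraries of the same replicate number deviated together from their group means, so their differences within same-numbered pairs are given as well. A difference without 1 library keeps its same-numbered partner, and so also carries differences between replicates.

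None of the 56 members passed the test between the groups (limma, Benjamini-Hochberg adjusted over all genes, threshold 0.05), and the share over all genes was 0% too. At an unadjusted p of 0.05, 1 member passed, Pcdhgc4, where 4.91% of all genes did. The cadherins Cdh19, Cdh2, Cdh4 and Cdh10 and the protocadherin Pcdhgc4 had log2 differences of at least 1, which makes 5 of 56 members, where 1.79% of all genes reached that size. No member had a difference of -1 or below, where 2.36% of all genes did. The median difference was 0.11 over the members and -0.02 over all genes.

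**Figure D1:**
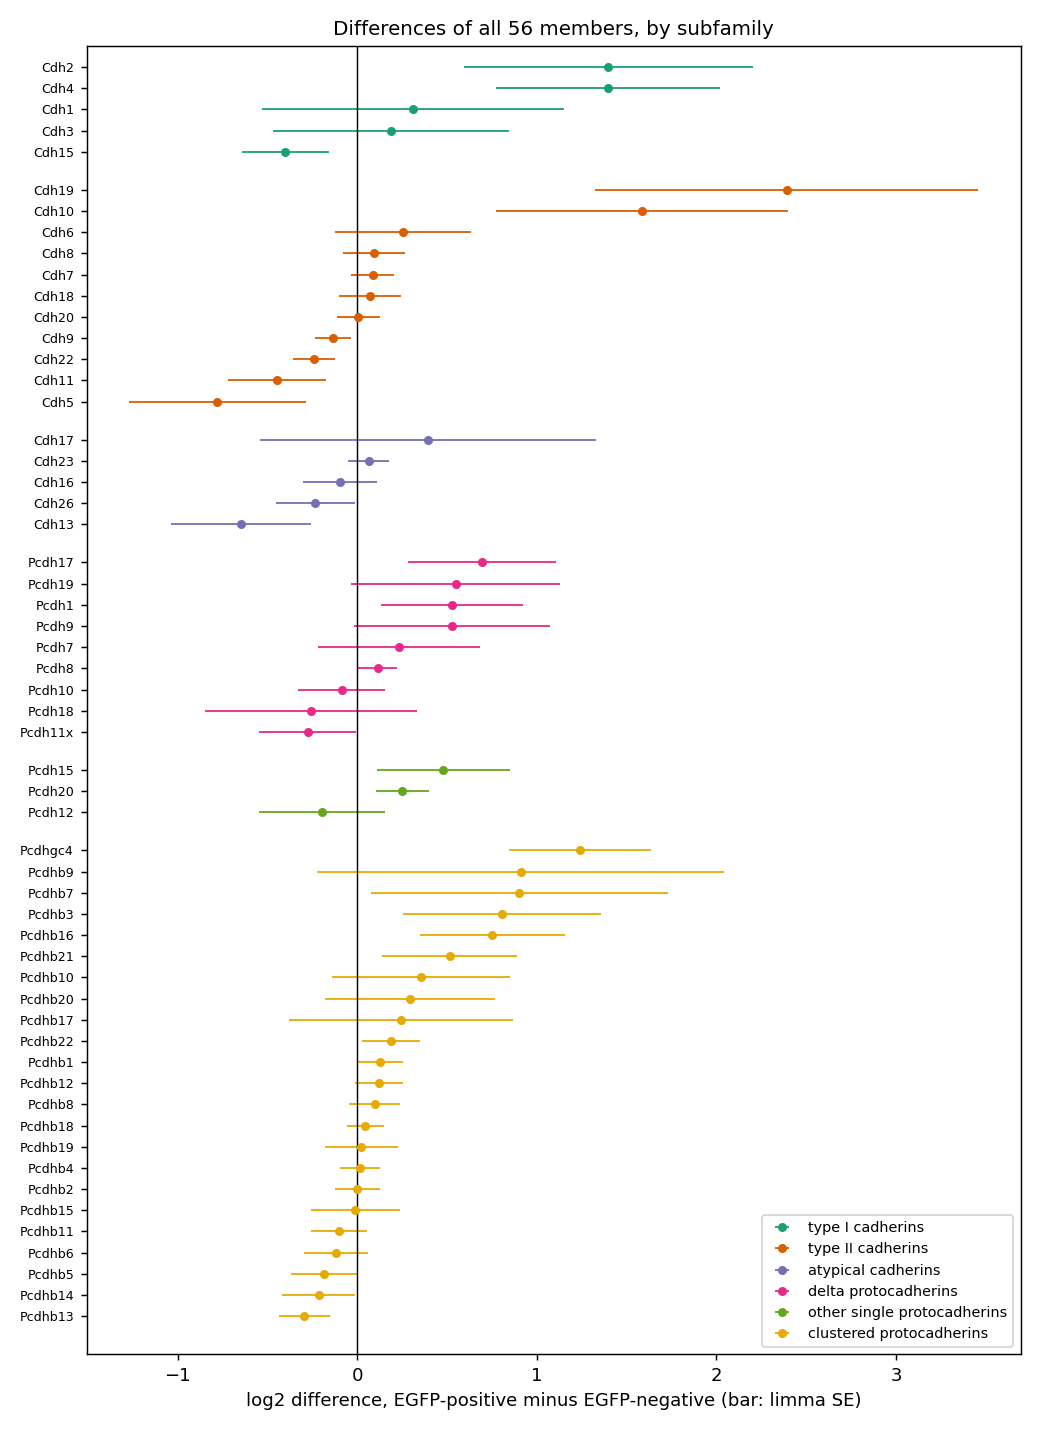
Log2 difference (EGFP-positive minus EGFP-negative, horizontal axis) of each of the 56 members, ordered by subfamily, with the limma standard error as a bar. Cdh19 lies farthest to the right at 2.39 and Cdh5 farthest to the left at -0.78, and no member passed over all genes.

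Many of the high values lay in a single library. EGFP-positive replicate 3 held the highest value of 24 of the 56 members, 42.9%, where it held the highest of 19.6% of all genes. The lowest value of 7 members lay there as well, namely Cdh1, Cdh3, Cdh5, Cdh11, Cdh13, Cdh17 and Pcdh12, where 22.4% of all genes had their lowest value in it. Within same-numbered pairs, 12 members were higher in the EGFP-positive library of all 3 pairs, where 11.3% of all genes were. Another 6 were higher in none of the pairs, where 18.2% of all genes were. This last count takes a tie as not higher, and Cdh26 had a tie in replicate 3.

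Among the type II cadherins, Cdh19, found in neural crest cells and their glial descendants, had the largest difference of all members. It read 6.85, 7.70 and 9.48 under the EGFP-positive label, against 3.67, 6.89 and 6.29 under the EGFP-negative label. Its highest value was in EGFP-positive replicate 3 and its lowest in EGFP-negative replicate 1, and the groups overlapped narrowly, because EGFP-negative replicate 2 lay just above EGFP-positive replicate 1. The difference was 2.39 (SE 1.07) with a limma adjusted p = 1.00 over all genes. Within the same-numbered pairs the differences were 3.18, 0.81 and 3.19, all in 1 direction. Without EGFP-positive replicate 3 the difference was 1.66, and without EGFP-negative replicate 1 it was 1.42, so that each of these libraries moved it by a large part of its size.

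The mean over genes of enteric glia had the same highest and lowest libraries as Cdh19. The 11 glial genes measured had means of 6.35, 5.92 and 8.04 under the EGFP-positive label and 4.46, 5.62 and 5.29 under the EGFP-negative label. All 11 had positive differences, where 8443 of 18193 genes did. Groups did not overlap in 5 of them, all higher under the EGFP-positive label, where 3.07% of all genes had this pattern. The EGFP-positive library was higher in all 3 pairs for 8, where it was for 11.3% of all genes. Sox10, the transcription factor that defines glia of the neural crest, read 8.36, 7.56 and 9.75 against 6.28, 7.14 and 6.79. Erbb3, a neuregulin receptor of the same lineage, read 8.05, 7.46 and 9.11 against 5.27, 6.86 and 6.42, and none of the 11 passed over all genes. None of the list stayed under 2 in all libraries. The part of the glial content in the Cdh19 values was not tested. In arrays of mixed cells, fewer cells of a type and less RNA per cell cannot be told apart.

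**Figure D2:**
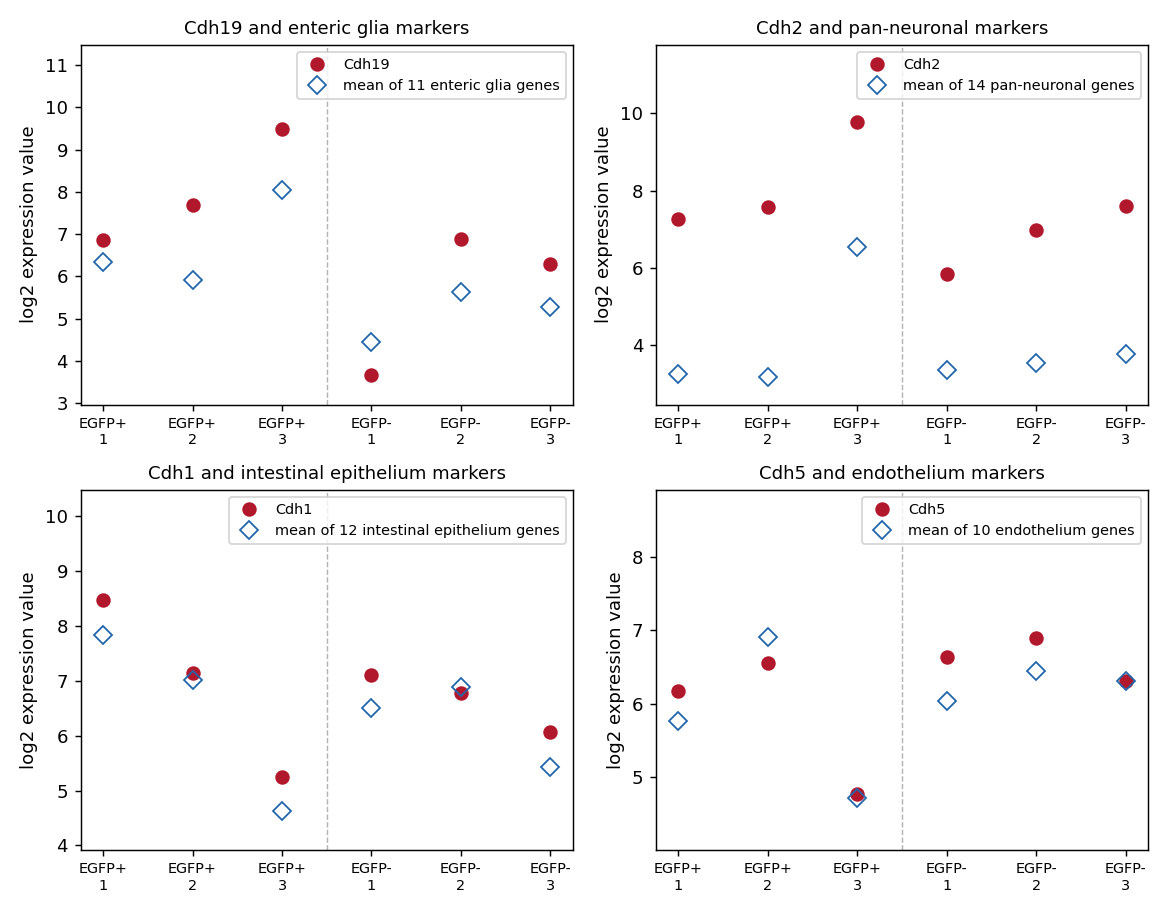
Values of 4 marker cadherins (filled circles) and the mean of the marker genes of a cell type (open diamonds) in each library, on a log2 scale. Cdh19 and the glial mean are both highest in EGFP-positive replicate 3 and lowest in EGFP-negative replicate 1, and Cdh1 and Cdh5 are lowest in EGFP-positive replicate 3 together with the epithelial and endothelial means.

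Cdh2, the N-cadherin of neurons, glia, muscle and mesenchyme, read 7.26, 7.58 and 9.78 under the EGFP-positive label, against 5.84, 6.99 and 7.60 under the EGFP-negative label. EGFP-positive replicate 3 stood above all other libraries, while the other EGFP-positive values lay below EGFP-negative replicate 3. The difference was 1.40 (SE 0.80) with a limma adjusted p = 1.00, and 0.61 without EGFP-positive replicate 3. Within pairs it was 1.42, 0.59 and 2.18, again in 1 direction. A second Cdh2 probe set read 5.30, 5.41 and 7.97 against 4.25, 4.73 and 5.29, a difference of 1.47 in which the groups were separated by a margin as narrow as the rounding of these values. The 14 pan-neuronal genes had means of 3.24, 3.16 and 6.55 under the EGFP-positive label and 3.34, 3.53 and 3.76 under the EGFP-negative label, so EGFP-positive replicate 3 was the highest for both. In pairs 1 and 2 the neuronal mean was lower in the EGFP-positive library, where Cdh2 was higher. The list for glia was highest in EGFP-positive replicate 3 too. The 8 smooth muscle genes averaged 9.31, 8.82 and 10.82 against 9.70, 9.09 and 11.08, highest in replicate 3 of both groups as Cdh2 was. The fibroblast-like mean was lowest in EGFP-positive replicate 3. The parts of these cell types in the level of Cdh2 were not tested.

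Cdh4 (R-cadherin, a type I cadherin of the developing nervous system) and Cdh10 (a type II cadherin of the brain) were chosen for naming after their values were seen, because their groups did not overlap. Groups did not overlap in 4 members that were higher in the libraries labelled EGFP-positive, namely Cdh4, Cdh10, Pcdh17 and Pcdhgc4, where 3.07% of all genes had this pattern. Cdh4 read 2.73, 2.73 and 4.91 under the EGFP-positive label, against 2.08, 2.09 and 2.01 under the EGFP-negative label. EGFP-positive replicate 3 was well above the rest, the other EGFP-positive libraries lay slightly above the EGFP-negative ones, and the difference was 1.40 (SE 0.62) with a limma adjusted p = 1.00. It was 0.67 without EGFP-positive replicate 3, and 0.65, 0.64 and 2.90 within pairs. A second probe set gave 1.33, and the last read 1.23 to 1.79, near background.

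Cdh10 read 2.04, 2.21 and 4.92 under the EGFP-positive label, against 1.76, 1.58 and 1.07 under the EGFP-negative label. Only EGFP-positive replicate 3 was clearly above background, and the difference of 1.58 (SE 0.81), with a limma adjusted p = 1.00, was 0.65 without it. Within pairs it was 0.28, 0.63 and 3.84. The 3 other Cdh10 probe sets read 0.97 to 2.21, at or near background in all libraries, and bear neither way on this difference.

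Cdh10 and the delta protocadherin Pcdh17 were both highest in EGFP-positive replicate 3, and their promoter windows are shown as 2 members with this pattern for which a RefSeq window (build GRCm38.p6) was at hand. Each window spans 250 bases before to 50 after the annotated start, and capitals mark the E-box CANNTG, the motif read by basic helix-loop-helix factors, which is the same on both strands.
Cdh10 promoter, chr15:18820079-18820378, plus strand: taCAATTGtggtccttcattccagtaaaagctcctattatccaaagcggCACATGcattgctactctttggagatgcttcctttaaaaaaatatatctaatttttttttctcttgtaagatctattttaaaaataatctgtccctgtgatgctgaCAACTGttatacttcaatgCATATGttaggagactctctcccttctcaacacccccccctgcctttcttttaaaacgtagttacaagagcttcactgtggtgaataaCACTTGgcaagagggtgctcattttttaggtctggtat
Pcdh17 promoter, chr14:84443313-84443612, plus strand: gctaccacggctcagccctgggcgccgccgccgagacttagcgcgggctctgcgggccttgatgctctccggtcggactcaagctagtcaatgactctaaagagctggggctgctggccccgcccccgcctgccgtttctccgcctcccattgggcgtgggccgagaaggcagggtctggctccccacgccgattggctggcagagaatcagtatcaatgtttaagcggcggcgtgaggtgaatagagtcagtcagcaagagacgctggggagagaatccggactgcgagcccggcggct
The Cdh10 window held 5 E-boxes at a GC content of 37.7%, and that of Pcdh17 held 0 at 65%. At least 1 E-box was present in 72.3% of 32851 windows, and 5 or more in 2.1%. Among the 23 windows at hand for 20 members, these shares were 56.5% and 4.35%, and the latter is the Cdh10 window itself. The windows of these 2 genes thus differ in both respects, and a match in letters shows no binding.

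Other type II cadherins mark vessels and connective tissue. Cdh5, the VE-cadherin of endothelial junctions, read 6.18, 6.56 and 4.77 under the EGFP-positive label, against 6.64, 6.90 and 6.30 under the EGFP-negative label. EGFP-positive replicate 3 was the lowest of the 6, and the groups overlapped, with a difference of -0.78 (SE 0.49) (limma adjusted p = 1.00). It was lower in all 3 pairs, with differences of -0.47, -0.34 and -1.53, and the difference was -0.25 without EGFP-positive replicate 3. A second Cdh5 probe set read 0.84 to 1.29, at background throughout. The 10 endothelial genes had means of 5.76, 6.91 and 4.71 under the EGFP-positive label and 6.04, 6.44 and 6.31 under the EGFP-negative label. All 10 had negative differences, where 8443 of 18193 genes had a positive one. Of the 10, 2 were lower in all 3 pairs, where 18.2% of all genes were higher in none of the pairs. Over all genes 0 of them passed, and their groups overlapped in every case. EGFP-positive replicate 3 was the lowest for the list mean, as it was for Cdh5. The list mean was highest in EGFP-positive replicate 2, while Cdh5 was highest in EGFP-negative replicate 2.

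Cdh11, the cadherin of fibroblasts and other mesenchymal cells, read 8.14, 8.93 and 7.97 under the EGFP-positive label, against 8.83, 8.89 and 8.65 under the EGFP-negative label, with a difference of -0.45 (SE 0.27) and a limma adjusted p = 1.00. EGFP-positive replicate 2 was the highest and EGFP-positive replicate 3 the lowest library, and the groups overlapped. Without EGFP-positive replicate 3 the difference was -0.26, without EGFP-positive replicate 2 it was -0.74, and within pairs it was -0.69, 0.032 and -0.69. A second Cdh11 probe set had a difference of opposite sign, 0.09. The 8 fibroblast-like genes averaged 9.83, 10.29 and 9.28 against 9.78, 10.46 and 10.29, with EGFP-positive replicate 3 again the lowest and EGFP-positive replicate 2 the highest of its group. Cdh6, Cdh7, Cdh8, Cdh9, Cdh18, Cdh20 and Cdh22, all known from the nervous system among other tissues, did not exceed 2.54 in any library. Cdh9 and Cdh22 were the 2 members with groups that did not overlap and lower values in the libraries labelled EGFP-positive, where 6.04% of all genes had that pattern. Neither exceeded 2 in any library, a level at which the separation carries little weight.

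The epithelial cadherins varied widely within the groups. Cdh1, the E-cadherin of epithelial junctions, read 8.48, 7.15 and 5.25 under the EGFP-positive label, against 7.11, 6.77 and 6.06 under the EGFP-negative label. EGFP-positive replicate 1 was the highest and EGFP-positive replicate 3 the lowest library, so that the EGFP-negative values all lay between them. The difference was 0.31 (SE 0.84), with a 95% interval of -1.79 to 2.41 and a limma adjusted p = 1.00. It was 1.17 without EGFP-positive replicate 3, and within pairs it changed sign (1.37, 0.38 and -0.81).

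Cdh17, the LI-cadherin of intestinal epithelium, read 6.64, 5.75 and 3.31 under the EGFP-positive label, against 4.97, 5.58 and 3.97 under the EGFP-negative label, with a difference of 0.40 (SE 0.94), a limma adjusted p = 1.00 and pair differences of 1.68, 0.17 and -0.66. It had the order of Cdh1 within the EGFP-positive group, with replicate 1 highest and replicate 3 lowest, and without replicate 3 the difference was 1.36. Cdh3, the P-cadherin found in epithelia, read 6.85, 6.02 and 4.91 under the EGFP-positive label, against 6.73, 5.54 and 4.94 under the EGFP-negative label, with a difference of 0.19 (SE 0.66) and a limma adjusted p = 1.00, and 0.70 without EGFP-positive replicate 3. In both groups replicate 1 was highest and replicate 3 lowest for Cdh1 and Cdh3, and replicate 3 was lowest for Cdh17. The pair differences of Cdh3 were 0.11, 0.48 and -0.026, smaller than the spread between replicates of 1 group.

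Markers of intestinal epithelium and of mesothelium, the cell layer that covers the gut, had their lowest means in replicate 3 of both groups, as these 3 cadherins did. The 12 epithelial genes had means of 7.84, 7.02 and 4.62 under the EGFP-positive label and 6.51, 6.90 and 5.44 under the EGFP-negative label. Epcam, an epithelial adhesion molecule, read 8.72, 8.10 and 5.63 against 6.97, 7.82 and 6.73. The 6 mesothelial genes averaged 9.63, 9.07 and 7.27 against 9.32, 8.67 and 7.56, with replicate 1 highest and replicate 3 lowest in both groups. None of the 18 genes passed over all genes, their groups overlapped in every case, and none stayed under 2 in all libraries. Which of the cell types contributed the Cdh1, Cdh3 and Cdh17 transcripts was not tested.

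Of the other atypical cadherins, Cdh13 alone had a mean of at least 4. Cdh13 (T-cadherin, anchored to the membrane by a lipid and known from vessels and muscle) read 5.53, 6.22 and 4.93 under the EGFP-positive label, against 5.73, 6.38 and 6.51 under the EGFP-negative label. The lowest library was EGFP-positive replicate 3, the groups overlapped, and the difference was -0.65 (SE 0.39) with a limma adjusted p = 1.00. It was lower in all 3 pairs, with differences of -0.20, -0.16 and -1.58, and -0.33 without EGFP-positive replicate 3. A second Cdh13 probe set gave -0.41, and the other 2 read 1.22 to 2.24, near background. The 8 genes of smooth muscle, which also expresses Cdh13, averaged 9.31, 8.82 and 10.82 against 9.70, 9.09 and 11.08, highest in replicate 3 of both groups. The endothelial genes averaged 5.76, 6.91 and 4.71 against 6.04, 6.44 and 6.31, lowest in EGFP-positive replicate 3 as Cdh13 was. The parts of these cell types in the Cdh13 values were not tested. Cdh16, Cdh23 and Cdh26 did not exceed 2.30 in any library.

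**Figure D3:**
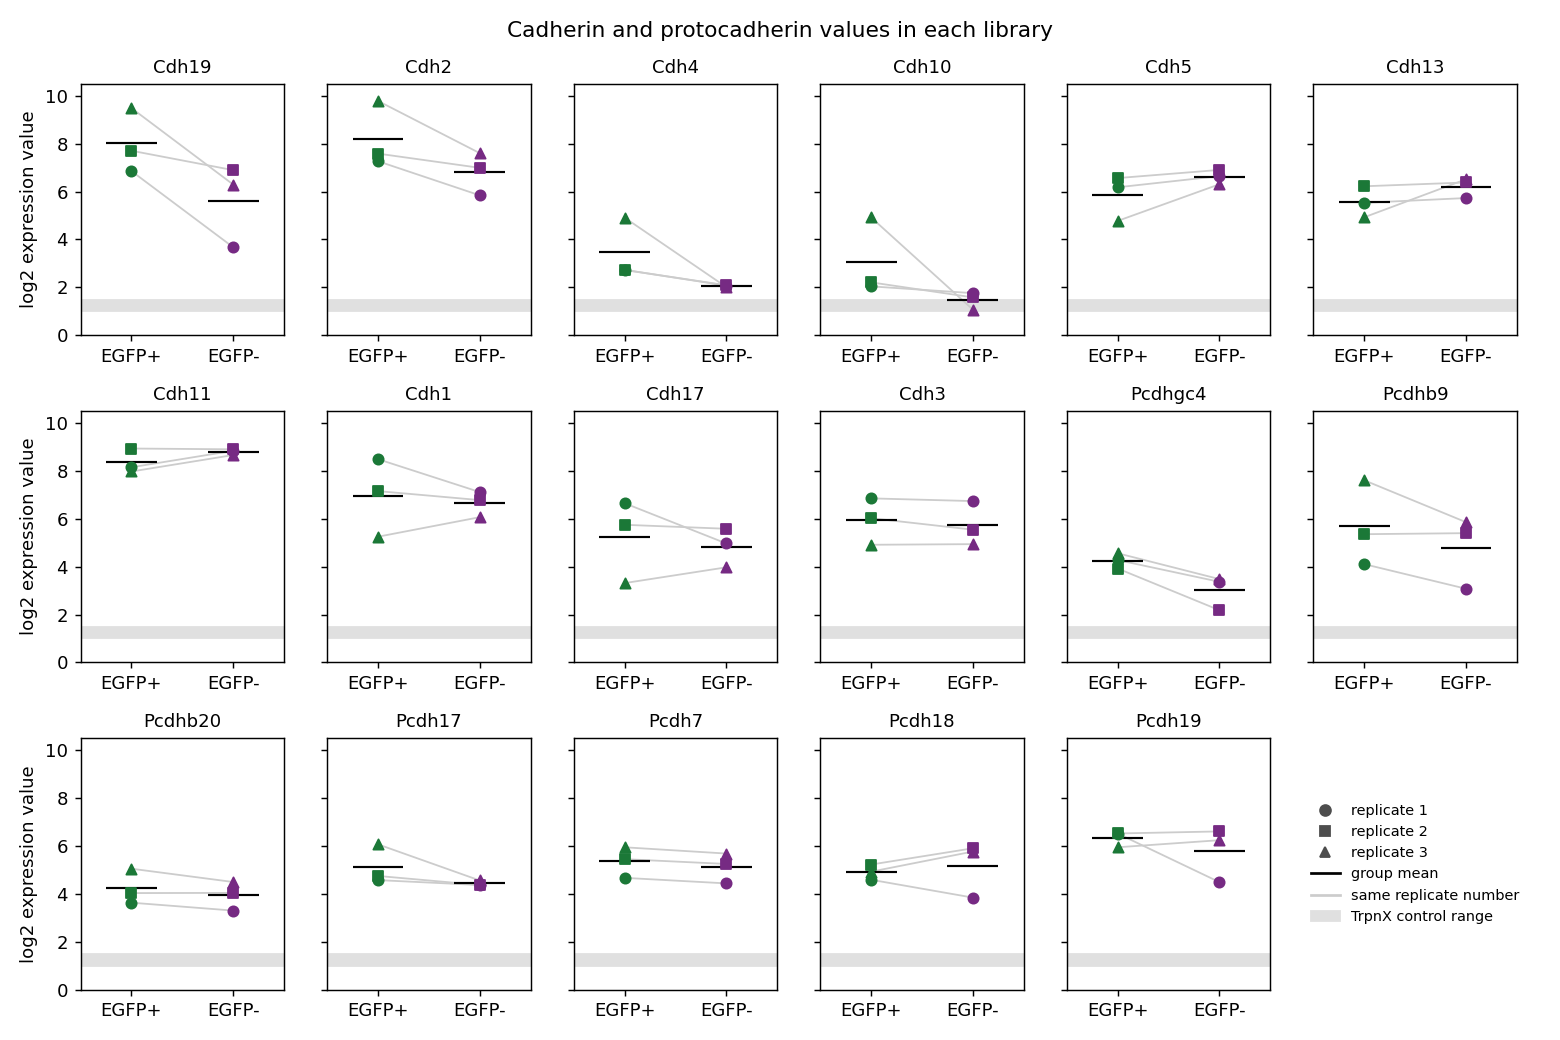
Log2 expression value of 17 members in each library, with the libraries labelled EGFP-positive left of those labelled EGFP-negative; marker shapes give the replicate number, grey lines join equal numbers, black bars are group means and the grey band is the range of the TrpnX controls. The EGFP-positive triangle (replicate 3) is the highest point for Cdh19, Cdh2, Cdh4 and Cdh10 and the lowest for Cdh5, Cdh13, Cdh11, Cdh1, Cdh17 and Cdh3.

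The clustered protocadherins, encoded side by side in gene arrays, included a member whose groups did not overlap. Pcdhgc4, a C-type gamma protocadherin known in mice for its part in the survival of neurons, read 4.27, 3.92 and 4.56 under the EGFP-positive label, against 3.37, 2.18 and 3.48 under the EGFP-negative label. All 3 EGFP-positive values lay above all EGFP-negative ones, and the averages were 4.25 ± 0.32 and 3.01 ± 0.72 (SD, n = 3 each). The difference was 1.24 (SE 0.40) with a limma adjusted p = 0.99 over all genes. It was 1.09 without EGFP-positive replicate 3 and 1.42 without EGFP-negative replicate 1. Without EGFP-negative replicate 2, its lowest library, it was 0.83. The pairs gave 0.91, 1.74 and 1.08. A single probe set represented it, and it was the 1 member of the gamma cluster measured alone.

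Pcdhb genes, whose products contribute to the surface identity of neurons, were above background in few cases. Of the 22, 9 stayed under 2 in every library and 5 reached 4 in at least 1. In EGFP-positive replicate 3, 8 of the 22 read at least 3, where 3 and 4 did in the EGFP-positive replicates 1 and 2 and 3 did in each library labelled EGFP-negative. That library held the highest value of 12 of the 22. Their averages were 1.91, 2.04 and 2.73 under the EGFP-positive label and 1.91, 2.05 and 2.12 under the EGFP-negative label.

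Pcdhb9 read 4.10, 5.35 and 7.60 under the EGFP-positive label, against 3.08, 5.40 and 5.85 under the EGFP-negative label. The highest value was in EGFP-positive replicate 3 and the lowest in EGFP-negative replicate 1. Its difference of 0.91 (SE 1.14), with a limma adjusted p = 1.00, was -0.048 without EGFP-positive replicate 3 and 0.06 without EGFP-negative replicate 1. Both of these values keep the partner of the library left out, so they also carry differences between replicates. Within pairs it was 1.03, -0.043 and 1.75. Pcdhb20 read 3.63, 4.03 and 5.05 under the EGFP-positive label, against 3.30, 4.04 and 4.49 under the EGFP-negative label, with a difference of 0.29 (SE 0.47) and a limma adjusted p = 1.00. It was -0.11 without EGFP-positive replicate 3, and 0.33, -0.0078 and 0.55 within pairs. The groups overlapped in both genes. Pcdhb7, chosen after its values were seen for its single high library, read 2.46, 2.65 and 5.41 against 2.22, 2.69 and 2.90, and only EGFP-positive replicate 3 was above 3. Pcdhb genes are close in sequence, so a probe set may also detect its neighbours.

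**Figure D4:**
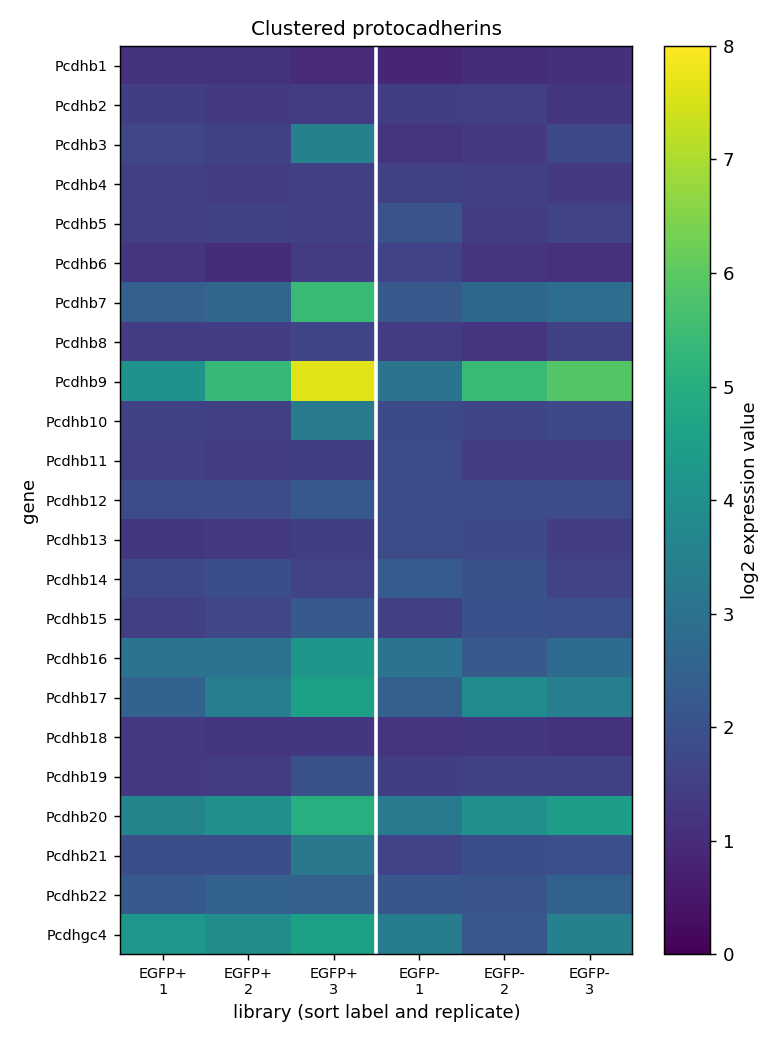
Log2 expression values (colour) of the 23 clustered protocadherins in the 3 libraries labelled EGFP-positive (left) and the 3 labelled EGFP-negative (right). EGFP-positive replicate 3 is the brightest column for Pcdhb3, Pcdhb7, Pcdhb9, Pcdhb10, Pcdhb16 and Pcdhb17, and 9 Pcdhb genes stay under 2 in all columns.

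The 6 probe sets that the annotation gives jointly to several alpha protocadherin genes were no members. In 2 of them EGFP-positive replicate 3 stood apart. The first read 2.13, 1.18 and 5.69 under the EGFP-positive label and 1.90, 2.22 and 1.97 under the EGFP-negative label, and the second read 1.31, 0.82 and 5.19 and 1.34, 1.24 and 1.26. The other 5 libraries did not exceed 2.22 in either. One more reached 2.87 in the same library, and the remaining 3 did not exceed 2.06 anywhere.

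Delta protocadherins, grouped by conserved motifs in their cytoplasmic tails, had 4 of 9 members with a mean of at least 4. Pcdh17, known for its part in synapse assembly, read 4.57, 4.74 and 6.06 under the EGFP-positive label, against 4.37, 4.37 and 4.56 under the EGFP-negative label. EGFP-positive replicate 3 stood above the rest and EGFP-positive replicate 1 lay only just above the highest EGFP-negative library. The difference was 0.70 (SE 0.41) with a limma adjusted p = 1.00, and 0.23 without EGFP-positive replicate 3. Within pairs it was 0.20, 0.38 and 1.51. The second Pcdh17 probe set gave 0.60.

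Pcdh7 read 4.66, 5.44 and 5.94 under the EGFP-positive label, against 4.43, 5.24 and 5.68 under the EGFP-negative label, with a difference of 0.23 (SE 0.45) and a limma adjusted p = 1.00. The groups overlapped, but within pairs the differences were nearly equal, at 0.23, 0.20 and 0.26. The group difference was -0.064 without EGFP-positive replicate 3, with EGFP-negative replicate 3 kept. Pcdh19, an X-linked protocadherin that binds N-cadherin, read 6.51, 6.52 and 5.94 under the EGFP-positive label, against 4.49, 6.60 and 6.24 under the EGFP-negative label, with a difference of 0.55 (SE 0.58) and a limma adjusted p = 1.00. It was of like level in 5 libraries and lower in EGFP-negative replicate 1, without which the difference was -0.10. Without EGFP-positive replicate 3 it was 0.74, and within pairs 2.02, -0.086 and -0.30.

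Pcdh18 read 4.58, 5.22 and 4.92 under the EGFP-positive label, against 3.84, 5.90 and 5.76 under the EGFP-negative label, with a difference of -0.26 (SE 0.59) and a limma adjusted p = 1.00. EGFP-negative replicate 1 was again the lowest, and without it the difference was -0.92. Without EGFP-positive replicate 3 it was -0.26, and within pairs 0.74, -0.68 and -0.84. Of the rest of this subfamily, Pcdh9, chosen after its values were seen, read 2.09, 1.98 and 3.82 against 2.21, 2.42 and 1.67, and Pcdh1 read 2.33, 1.70 and 3.21 against 1.89, 1.67 and 2.09, both highest in EGFP-positive replicate 3. A second Pcdh9 probe set gave 1.19, where the one used gave 0.53, and the last read 1.18 to 1.61, near background. Pcdh8, Pcdh10 and Pcdh11x, which are known from the nervous system, did not exceed 2.34. Of the other single protocadherins, Pcdh12, found in endothelium, read 2.18, 2.46 and 1.31 against 1.79, 2.40 and 2.36, and Pcdh15 and Pcdh20 did not exceed 2.61.

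Across the family, 18 of 56 members stayed under 2 in all 6 libraries, where 28.1% of all genes did. Several probe sets existed for 27 members. Catenins and their partners tie cadherins to actin, and the 12 genes measured had means of 6.08, 6.13 and 6.39 under the EGFP-positive label and 5.93, 5.86 and 5.93 under the EGFP-negative label. These means did not overlap, while the groups overlapped for each single gene. The mean of EGFP-positive replicate 3 includes Ctnna2, Ctnna3 and Ctnnd2, which read lower in all other libraries. None of the 12 passed over all genes, and 2 were higher in all 3 pairs, where 11.3% of all genes were. The median difference was 0.31, with 11 of 12 positive, where 8443 of 18193 genes had a positive difference. Ctnnb1 (beta-catenin), a core partner of classical cadherins, read 10.85, 11.01 and 10.86 under the EGFP-positive label, against 10.86, 10.85 and 10.85 under the EGFP-negative label. Ctnna1, the alpha-catenin of most tissues, read 10.24, 10.61 and 10.68 against 10.30, 10.21 and 10.47, so both varied little.

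Some of their relatives on the list had a different pattern. Ctnna2, the alpha-catenin of neurons, read 1.46, 1.41 and 3.41 against 1.48, 1.65 and 1.49, and Ctnnd2, a delta-catenin of neurons, read 1.84, 2.04 and 4.04 against 1.91, 2.02 and 2.18. Both were above background mainly in EGFP-positive replicate 3, the library in which Cdh4, Cdh10 and Pcdhb7 had their highest values. Neither passed over all genes, with limma adjusted p = 1.00 and 1.00. Ctnna3, another alpha-catenin of the list, was also highest in that library but closer to background. It read 1.36, 1.13 and 2.11 against 1.33, 1.31 and 1.22.

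Markers of macrophages, of lymphocytes and of interstitial cells of Cajal were measured as well, and none of these genes passed over all genes. The 10 macrophage genes had means of 5.95, 3.00 and 1.94 under the EGFP-positive label and 7.35, 7.54 and 6.06 under the EGFP-negative label, lower in all 3 pairs for each gene. The 7 lymphocyte and plasma cell genes averaged 2.28, 1.16 and 1.26 against 3.27, 5.13 and 5.91, lower in all 3 pairs for each gene too. Over all genes, 18.2% were higher in none of the pairs, ties included. The 4 genes of interstitial cells of Cajal, the pacemaker cells, averaged 5.21, 5.21 and 4.28 against 4.66, 6.40 and 6.26, and their groups overlapped. The part of these cells in the cadherin values was not tested.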

How the data were processed

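Total RNA of sorted cells (about 50 ng) was labelled and hybridised to Affymetrix Mouse Genome 430 2.0 arrays, 1 per library, per the labels' protocols. The authors deposited log2 expression values. The submitters' processing notes name RMA, and its version and settings are not stated there. Column medians of 1.91 to 1.99 and upper quartiles of 4.08 to 4.86 are not what RMA with quantile normalisation usually gives, so how the values were made is uncertain. The number of arrays limits the precision, and the p-values rest on the spread between libraries of pooled mice.

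Of 45101 probe sets, 34945 had 1 gene symbol in the platform annotation, 932 several and 9160 none, and 64 were controls. Members had 101 probe sets. Members, lists and the naming rule were chosen with earlier results of these data known. The rule named Cdh19, Cdh5, Cdh1 and Cdh2, members with a mean of at least 4 or a library of at least 6, and the highest and lowest difference of each subfamily where a library reached 4. All 18193 genes were fitted with limma 3.58.1 in R 4.3.3 (lmFit, eBayes, two-sided, Benjamini-Hochberg adjusted p 0.05). The code was first run on simulated data with independent noise of equal size for every gene and no pairing. That run checks the code and does not show which differences could pass in these libraries. The replicate numbers pair the libraries by the data: deviations from group means of same-numbered libraries correlated at 0.48, 0.33 and 0.57 over 8070 genes with a mean of at least 4. Tables and figures used Python 3.11.15, pandas 2.3.3 and matplotlib 3.10.9. Alternatives were 2 scalings, the replicate block, a filter on dim genes, 2 probe set rules, 2 variance settings and leaving out each library.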

Additional observations from a re-analysis of the deposited data

Results flagged for a closer look

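A further probe set of Cdh2 and one of Cdh4, not used above because their means were lower, had all 3 libraries labelled EGFP-positive above all 3 labelled EGFP-negative and reached 4 in at least 1 library. The Cdh2 probe set gave a log2 difference of 1.47 and the Cdh4 probe set one of 1.33, where the probe sets used gave 1.40 and 1.40. The Cdh4 values were 2.70, 2.58 and 4.96 against 2.53, 2.23 and 1.50, with EGFP-positive replicate 3 highest.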

How the results depend on the processing

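With 14 alternatives, 0 of the members and 0 of the catenin partner genes tested passed over all genes in each. All 56 members were tested in each but the filter on dim genes, which kept 16. With the replicate block, 3 members passed at an unadjusted p of 0.05 (Cdh19, Cdh2 and Pcdhgc4), 5.36% of the 56 where 7.39% of all genes did, and the smallest adjusted p was 0.661. The standard errors given above are from the fit without this block and ignore the pairing. For Cdh19, Cdh2, Cdh4, Cdh10 and Pcdhgc4 they were 1.07, 0.80, 0.62, 0.81 and 0.40. With the block they were 0.58, 0.35, 0.55, 0.82 and 0.21. The smallest adjusted p of a named member under any alternative was 0.444, for Pcdhgc4 with array weights. Over all genes 0 passed, and 0 to 2 without 1 library, where the 2 were called without EGFP-positive replicate 1. The 4 members higher with groups that do not overlap became 2 with added quantile normalisation, 2 among genes above the median level and 6 to 9 without 1 library. The 2 lower ones became 4 with arrays centred on their median, 0 among genes above the median level and 3 to 7 without 1 library, where fewer libraries overlap less often by construction. Of 17 members followed, 9 kept the sign of their difference in every alternative that included them. The other 8 changed sign, each only without 1 library, with ranges of -0.45 to 1.17 for Cdh1, -0.31 to 1.36 for Cdh17, -0.27 to 0.70 for Cdh3, -0.92 to 0.11 for Pcdh18, -0.10 to 0.96 for Pcdh19, -0.11 to 0.57 for Pcdh7, -0.11 to 0.60 for Pcdhb20 and -0.048 to 1.70 for Pcdhb9. The differences of Cdh19 and Cdh2 kept their sign but ran from 1.42 to 3.03 and from 0.61 to 1.87, and were 1.45 and 0.82 with array weights. Each fit without 1 library kept its same-numbered partner, so these ranges also carry differences between replicates. Values under 2 lie near background and limit what can be read for 18 members.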
